A study of Mus musculus with 5 samples.

Results

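Neutrophils of the obstructed mouse kidney were taken from 4 droplet single-cell RNA libraries by a rule on raw counts of unique molecular identifiers (UMIs, each 1 captured transcript). Cells with fewer than 200 genes detected, or with over 50% of UMIs from mitochondrial genes, were left out. A kept cell was called a neutrophil if it had at least 10 UMIs of S100a8 and S100a9 together, at least 2 UMIs of Retnlg, Cxcr2 and Il1r2 together, and under 20 UMIs of C1qa, C1qb and C1qc together. The rule selected 97 of 13823 kept cells, or 0.702%, out of 16876 cells deposited. The animals were C57/BL6 mice aged 8 weeks, and every library held the kidney cells of 3 mice, pooled, digested on ice and sorted as live cells that excluded DAPI. The groups were sham surgery (day 0), day 2 of unilateral ureteric obstruction, day 7 of obstruction, and 7 days after an obstruction had been reversed (day 14 of the experiment), which is called reversed here. With 1 library a group there is no replicate, so no test between groups was possible, intervals cover counting error alone, and differences between mice cannot be told apart from differences between conditions. A further plate-based sample with all time points mixed was not used here.

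Neutrophils are short-lived granulocytes made in bone marrow, and they are among the first blood cells to enter injured tissue. They carry their granule proteins preformed: the transcripts of the primary and secondary granules are made in marrow precursors and are largely shut off by the time a cell circulates, while gelatinase (tertiary) granule and secretory vesicle transcripts persist later. In tissue, neutrophils switch on genes for interleukin-1, CXC and CC chemokines and the feedback inhibitors of NF-kB signalling. In the obstructed ureter model, back pressure injures the tubules, leukocytes accumulate, and release of the obstruction lets part of the damage resolve.

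The kidneys yielded between 2739 and 5938 deposited cells a library, with 18649637 to 30462683 UMIs in all. Kept cells had a median of 2709 to 6590 UMIs. The neutrophils were shallower than the kept cells of their own library: their median was 3767.5 UMIs at day 2, 4194 at day 7 and 3397.5 after reversal, with 1188, 1726 and 1367.5 genes. Summed over cells they gave 84004, 288964 and 84278 UMIs, and levels below are the summed UMIs of a gene per 1000000 UMIs of the neutrophils of that library (CPM), always in the order day 2, day 7, reversed. A single UMI was thus worth 11.9, 3.46 and 11.9 CPM. Each library pair shared 16 to 39 cell barcodes, and no barcode was a neutrophil in both libraries of a pair.

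No neutrophil was found in the sham library, and by the rule as given the cells were most frequent at day 7. The rule found 0 of 3933 kept sham cells (a count of 0 allows up to 0.0763%), and none of them reached 10 UMIs of S100a8 and S100a9. The sham library stood apart in its mitochondrial UMIs, with a median of 33.7% in kept cells against 9.80%, 2.98% and 8.36% in the day 2, day 7 and reversed libraries, and 1607 of its 5938 cells were over the 50% limit. With at most 20% mitochondrial UMIs it kept 648 cells, of which 0 were neutrophils (up to 0.463%). Neutrophils were 20 of 2207 kept cells at day 2 (0.906%, exact 95% binomial interval 0.554 to 1.40), 59 of 4447 at day 7 (1.33%, 1.01 to 1.71) and 18 of 3236 in the reversed kidney (0.556%, 0.330 to 0.878). The day 7 interval lay above the reversed one, and the day 2 interval overlapped both. The place of day 7 rested on cells with transcripts of other myeloid types: with C1q limited to under 5 UMIs the shares were 0.861%, 0.562% and 0.556%, and without members that carried monocyte transcripts (described further on) 0.816%, 0.787% and 0.402%, so that day 2 then had the highest share. Among immune cells (kept cells with at least 3 UMIs over Ptprc, Cd52, Coro1a, Laptm5 and Lcp1) the order was different: 2.11% of 949 cells at day 2 (1.29 to 3.24), 1.61% of 3668 at day 7 (1.23 to 2.07) and 1.34% of 1340 after reversal (0.798 to 2.11), and these 3 intervals overlapped. In the sham kidney 0 of 103 immune cells were neutrophils, which allows up to 2.91%, so at that number of immune cells a share like that of the other libraries was not excluded. The share of kept cells also moves with the number of other cells, and proximal tubule cells were 3192, 606, 205 and 1143 of the kept cells in the sham, day 2, day 7 and reversed libraries. The filter on kept cells removed 2 cells of day 2 and 1 of day 7 that met the gene part of the rule.

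**Figure D1:**
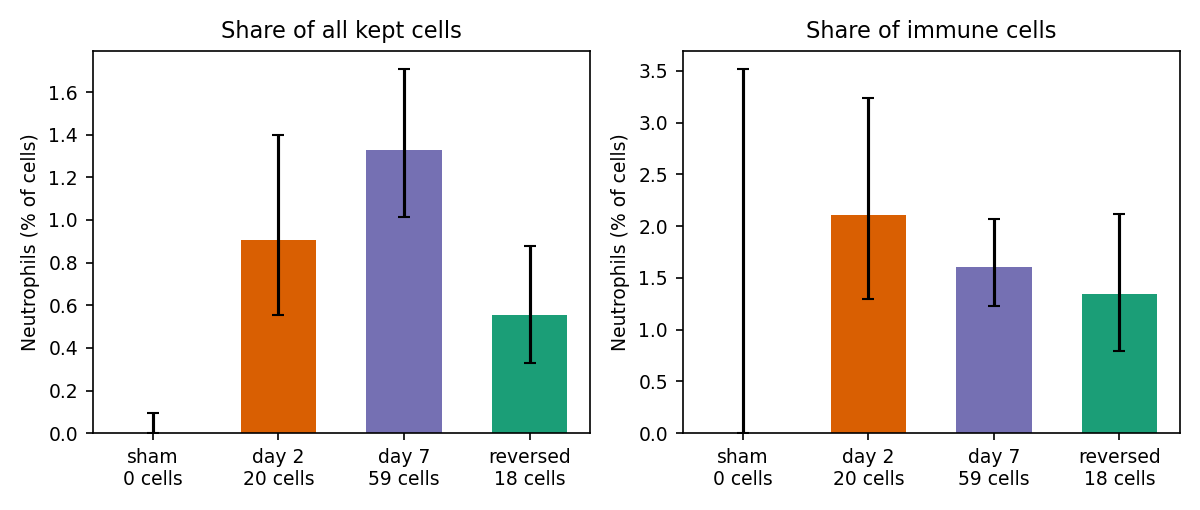
Share of neutrophils in each library, as percent of kept cells and as percent of immune cells. Bars start at 0 and lines are exact 95% binomial intervals (counting error only, 1 library of 3 pooled mice each). The share of kept cells runs from 0 in sham to 1.33% at day 7 and 0.556% after reversal, while the intervals of the share of immune cells overlap from day 2 to the reversed kidney.

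The cells were chosen by S100a8, S100a9, Retnlg, Cxcr2 and Il1r2, so the levels of these genes, and their differences between libraries, describe the selection and support no comparison. S100a8 and S100a9 encode the paired calcium-binding proteins of calprotectin, the main cytosolic protein of neutrophils. S100a8 stood at 45688, 20023 and 21310.4 CPM and S100a9 at 32344, 13853 and 13171 CPM. The sum of both per cell ran from 20 to 1868 UMIs with a median of 182 at day 2, from 10 to 709 with a median of 100 at day 7, and from 21 to 400 with a median of 129.5 after reversal. The neutrophils held 67.2%, 60.3% and 65% of all S100a8 UMIs of kept cells. Ly6c2-high monocytes of the same libraries had S100a8 at 344, 397 and 405 CPM. Kept cells without a Ptprc UMI had 118, 199 and 74.4 CPM. They stand in for the level of free RNA and misassigned reads, but they include immune cells. At day 7, 3668 cells were immune by Ptprc, Cd52, Coro1a, Laptm5 and Lcp1 together, against 2995 by at least 1 Ptprc UMI. Markers of mononuclear phagocytes summed to 3290, 16415 and 4557 CPM in the kept cells without Ptprc.

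Retnlg, a secreted resistin-like protein of neutrophils, was found in 15 of 20, 44 of 59 and 5 of 18 cells, at 8928, 2229 and 759 CPM. Its median per cell was 9, 2 and 0 UMIs, and its maximum 258, 72 and 33. Cxcr2, the receptor for CXCL1 and CXCL2 that draws neutrophils out of marrow and into tissue, was found at 429, 412 and 463 CPM in 14 of 20, 48 of 59 and 15 of 18 cells. Il1r2, the decoy receptor that binds interleukin-1 without signalling, was at 286, 384 and 475 CPM in 10 of 20, 44 of 59 and 14 of 18 cells. Reversed cells thus met this part of the rule more often by Cxcr2 and Il1r2 than by Retnlg.

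In all, 25 of the 97 members lay close to a threshold by 1 or more of the measures that follow, with 2 at day 2, 18 at day 7 and 5 after reversal. A sum of S100a8 and S100a9 of 10 to 19 UMIs was seen in 0, 5 and 0 members, and the 5 day 7 cells each carried between 3 and 23 UMIs over the monocyte genes Csf1r, Ccr2 and Ms4a4c. Just outside, with 5 to 9 UMIs, were 2, 2 and 0 cells. A sum of exactly 2 UMIs over Retnlg, Cxcr2 and Il1r2 admitted 2, 8 and 5 cells, and a sum of 1 kept out 2, 3 and 3. A further 7, 4 and 6 cells had enough S100a8 and S100a9 but none of the 3 other genes. Lyz2, which monocytes hold at far higher levels than neutrophils, was at 16323, 30106 and 21728 CPM in these. Members with 10 to 19 C1q UMIs numbered 0, 8 and 0, and cells left out by the C1q limit alone numbered 1, 6 and 0.

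The name was checked against genes that the rule did not use. Of 20 further neutrophil markers, 20, 20 and 18 were detected, and their sum was 17654, 15428 and 15698 CPM. The same sum was 2034, 1784 and 2004 CPM in monocytes, 813, 706 and 931 CPM in C1q-high macrophages, and 371, 370 and 337 CPM in kept cells without Ptprc. Csf3r, the receptor for granulocyte colony-stimulating factor, stood at 548, 408 and 297 CPM in 17 of 20, 48 of 59 and 15 of 18 cells. G0s2, a lipase inhibitor abundant in mature neutrophils, stood at 2988, 1989.9 and 1661 CPM, against 5.21, 16.7 and 70.4 CPM in monocytes. Mmp9 (gelatinase B) was at 476, 325 and 297 CPM and Mxd1, a MYC antagonist of terminally differentiating cells, at 536, 509 and 498 CPM. Ly6g, the surface protein by which mouse neutrophils are usually sorted, was thin in these libraries, with 15, 10 and 0 UMIs in 4, 6 and 0 cells. Markers of eosinophils, basophils and mast cells summed to 35.7, 62.3 and 94.9 CPM, and Epx, Prg2, Ear1, Cpa3 and Fcer1a were at 0 UMIs in all libraries.

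The selected cells were not free of RNA from other cells. Markers of mononuclear phagocytes summed to 5512, 17255 and 10240 CPM, against 33116, 96596 and 99754 CPM in the C1q-high macrophages. Tubule markers summed to 18059, 6195 and 5304 CPM, against 63070, 27624 and 33214 CPM in kept cells without Ptprc. Markers of T, natural killer and B cells reached 798, 218 and 368 CPM, those of endothelium and stroma 559, 1696 and 1519 CPM, and those of platelets and red cells 0, 332 and 190 CPM. Part of this sat in single cells. A reversed cell of 6509 UMIs held 314 of the 330 UMIs of S100g, a calcium-binding protein of the distal tubule, and a reversed cell of 11097 UMIs held 46 of 47 UMIs of the endothelial gene Plvap. A day 7 cell of 9691 UMIs held 112 of 118 UMIs of the collagen gene Col1a1. C1q transcripts, which neutrophils lack, had a median of 1, 5 and 1 UMIs per neutrophil, and 34 of 59 day 7 cells had 5 or more.

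At day 7 a large subset of the selected cells carried monocyte transcripts. Members with at least 2 UMIs over Csf1r (the receptor of macrophage colony-stimulating factor), Ccr2 (the chemokine receptor of inflammatory monocytes) and Ms4a4c numbered 2 of 20 at day 2, 24 of 59 at day 7 and 5 of 18 after reversal; this split was made after the values had been seen. At day 7 these 24 cells had a median of 5960.5 UMIs, against 2753 in the other 35. Their Lyz2, which neither the rule nor the split used, was 12764 CPM against 1823. Csf3r and Il1b, which the rule did not use either, were at 196 CPM against 704 and at 3137 CPM against 9613. The cells with the highest doublet scores included 4 of 20, 6 of 59 and 0 of 18 members, but none of these 24. Whether the 24 cells were monocytes with S100a8, mixed droplets or neutrophils with monocyte transcripts was not tested. Results below are therefore given for all members, and, where it changes the reading, for the 18, 35 and 13 members with under 2 such UMIs, called the monocyte-poor members. Ratios among these were read only for genes with at least 20 UMIs in them.

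**Figure D2:**
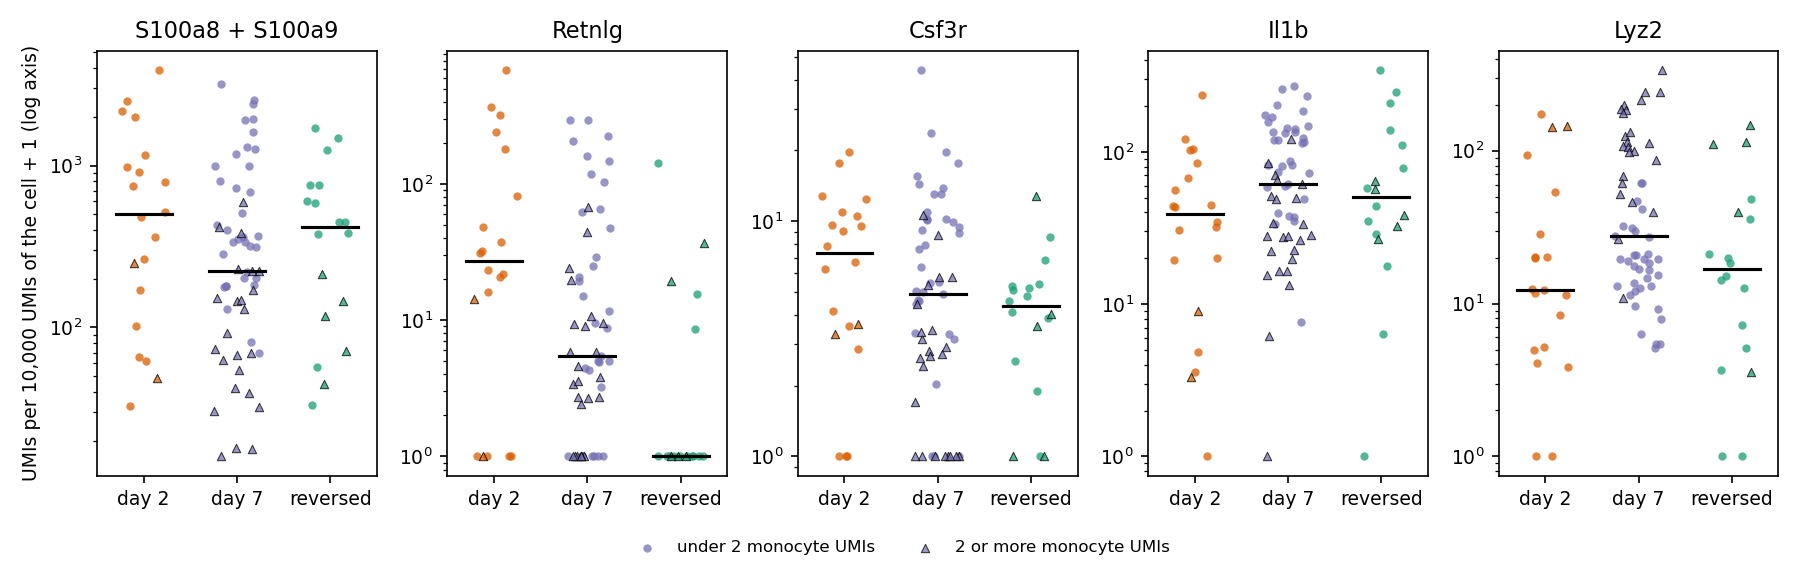
Every neutrophil as 1 point: UMIs per 10000 UMIs of the cell, plus 1 (log axis), for S100a8 with S100a9, Retnlg, Csf3r, Il1b and Lyz2, by library. Triangles are cells with at least 2 UMIs over Csf1r, Ccr2 and Ms4a4c, and lines are medians over cells. The triangles of day 7 lie high for Lyz2, which neither the rule nor the split used, while the panels of S100a8 with S100a9 and of Retnlg show the selection.

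Outside mitochondrial, ribosomal, haemoglobin and immunoglobulin genes and the 5 selecting genes, the neutrophil transcriptome was led by Malat1, Tmsb4x, Fth1, Actb and Ftl1. Cxcl2 (mean of 6257 CPM over the 3 libraries) and Il1b (5440 CPM) came next, ahead of Lyz2, Spp1, Tyrobp and Wfdc17. For Spp1, a gene of injured tubules, kept cells without Ptprc had 40367, 18189 and 6440.2 CPM against 9428, 3059 and 1507 CPM in neutrophils, and 342 of its 792 day 2 UMIs lay in 1 neutrophil. Cebpb, a transcription factor of mature myeloid cells and of emergency granulopoiesis, had a mean of 3532 CPM. The assay counts 3′ ends, 1 UMI per molecule, so these levels need no correction for gene length. The Ly6c2-high monocytes of the reversed library were mixed, with markers of T, natural killer and B cells at 8071 CPM, against 1129 and 1340 CPM in those of day 2 and day 7. Relative to Ly6c2-high monocytes of the same library, the genes with the largest smallest log2 ratio over the 3 libraries were G0s2 (4.38), Irg1 (4.22), Hdc (4.02), Il1f9 (4.02), Slc7a11 (3.32), Hcar2 (3.28), Ifitm1 (3.25), Il1b (3.19) and Stfa2l1 (3.17). Irg1 makes itaconate, Hdc makes histamine, Il1f9 encodes interleukin-36 gamma, and Hcar2 is a receptor for niacin and ketone bodies. The neutrophils held 50.5%, 62.2% and 48.7% of the Hdc UMIs of their libraries, 8.2%, 34.8% and 21.8% of Ptgs2 and 9.75%, 15.7% and 12.6% of Il1b. For Il1b, most transcripts of the kidney thus lay in other cells, which were far more numerous. These are descriptions, since the cells were chosen by genes of the same matrix.

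Libraries were compared by the log2 ratio of CPM plus 10, over genes with at least 20 UMIs in both libraries together, and a gene is called higher or lower when that ratio reached 1 in size (2-fold). By this rule 456 of 2555 genes (17.8%) were higher and 123 (4.81%) lower at day 7 against day 2, in reversed against day 7 180 of 2637 (6.83%) were higher and 265 (10%) lower, and in reversed against day 2 169 of 1171 (14.4%) were higher and 99 (8.45%) lower. The median of all genes was 0.25, -0.083 and 0.11. Only 34 of the genes higher at day 7 than at day 2 had a counting interval that lay wholly past 2-fold, and 34 of the lower ones. In reversed against day 7 such an interval was seen for 39 of the higher and 15 of the lower genes. In reversed against day 2 it was seen for 39 and 30. The 3 ratios share libraries and are not independent of one another. Brackets after a log2 ratio hold its 95% counting interval.

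The sum of secondary granule transcripts was highest at day 2, and part of the genes were lower in the later libraries. The secondary (specific) granule list of 10 genes had 6 that could be compared in reversed against day 2, and all 6 were lower (8.45% of all genes), with a median of -3.33, or -3.00 with genes at 0 placed at their bound. Of the 6 compared at day 7 against day 2, 4 were lower (4.81% of all genes) and none higher, with a median of -1.86, and in reversed against day 7, 2 of 4 were lower (10% of all genes), with a median of -1.05. The list summed to 6012, 1896 and 1056 CPM.

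Much of this came from 2 cells. Ngp, Camp and Ltf encode neutrophilic granule protein, cathelicidin and lactoferrin, which mark marrow myelocytes and metamyelocytes. Ngp had 104, 1 and 0 UMIs and Camp 31, 0 and 0, so Ngp was at least 34.8-fold and Camp at least 10.4-fold lower after reversal than at day 2, against a floor of 3 UMIs. A day 2 cell of 4807 UMIs held 86 Ngp, 28 Camp and 11 Ltf UMIs with 57 of Lcn2 and 154 of Retnlg. It had no Cxcl2 or Il1b, but it held 14 of the 48 day 2 UMIs of the cytokine gene Osm. A further day 2 cell, of 3782 UMIs, held 18 Ngp, 3 Camp and 20 Lcn2 UMIs with 258 of Retnlg, and it did have 39 Il1b UMIs. All other members together had a single Ngp UMI, in a day 7 cell. Mki67 had 1, 1 and 0 UMIs, and Mpo and Ctsg, of the earliest granules, had 0 in every library. Of the 18 listed genes of immature and cycling cells, 2 of 6 were lower (8.45% of all genes) and none higher in reversed against day 2, Camp and Ngp. At day 7 against day 2, 4 of 8 were lower (4.81% of all genes), namely Camp, Ngp, Stmn1 and Tuba1b, and none higher. In monocyte-poor members 4 of 5 were lower in reversed against day 2, Camp, Ly6c2, Ngp and Tuba1b (11.9% of all genes there). In the same members 5 of 8 were lower and 1, Cxcr4, higher at day 7 against day 2 (7.64% and 15.8%). Both cells rich in Ngp were among these members. Stmn1 and Tuba1b, a microtubule regulator and a tubulin chain that dividing cells hold at high levels, were at 155, 51.9 and 23.7 CPM and 298, 111 and 154 CPM, with ratios of -1.41 [-2.43 to -0.34] and -1.35 [-2.10 to -0.58] at day 7 against day 2, and -1.45 and -1.50 without the 2 cells rich in Ngp. A day 2 cell of 5387 UMIs held 10 of the 13 Stmn1 and 12 of the 25 Tuba1b UMIs, and without it Stmn1 was at 38.2 CPM and Tuba1b at 165 CPM.

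The promoters of Ngp, Camp and Ltf are shown because the day 2 cell richest in Ngp held UMIs of all 3, which lie on chromosome 9. C/EBP factors and PU.1 are known activators of granule genes, so the 250 bases before each RefSeq start (GRCm38.p6) were searched on both strands for the C/EBP core TTGCNNAA and the PU.1 core GAGGAAGT. Capitals mark matches to TTGCNNAA, and each run is written 5′ to 3′ on the strand of the gene, at chr9:110419558-110419807 (+) for Ngp, chr9:109849457-109849706 (-) for Camp and chr9:111019042-111019291 (+) for Ltf.
Ngp: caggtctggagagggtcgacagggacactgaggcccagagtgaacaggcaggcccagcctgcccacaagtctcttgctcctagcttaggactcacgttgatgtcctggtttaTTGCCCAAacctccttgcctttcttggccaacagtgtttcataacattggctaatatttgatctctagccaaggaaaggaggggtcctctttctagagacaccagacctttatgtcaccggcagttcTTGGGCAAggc
Camp: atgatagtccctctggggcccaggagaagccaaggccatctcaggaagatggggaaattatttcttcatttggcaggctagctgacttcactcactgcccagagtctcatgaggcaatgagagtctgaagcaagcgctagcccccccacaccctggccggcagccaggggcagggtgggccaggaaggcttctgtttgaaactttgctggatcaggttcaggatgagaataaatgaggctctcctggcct
Ltf: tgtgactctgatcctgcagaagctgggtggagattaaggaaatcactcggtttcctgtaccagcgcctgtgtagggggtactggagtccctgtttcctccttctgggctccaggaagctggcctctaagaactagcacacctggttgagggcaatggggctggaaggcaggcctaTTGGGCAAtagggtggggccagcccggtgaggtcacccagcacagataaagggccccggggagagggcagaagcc
The Ngp window held 2 matches, beginning 138 and 11 bases before the start, the Ltf window 1, at 75 bases, and the Camp window none. The C/EBP core was in 5 of the 8 secondary granule genes found in the table (also Lcn2, Lyz1 and Anxa1) and in 9.56% of all 32851 promoters. The PU.1 core was in none of the 8, and in 2.44% of all promoters. Of the 5 selecting genes Retnlg and S100a9 each held a C/EBP core, S100a8 a PU.1 core, and Cxcr2 and Il1r2 neither. Mmp8 held both and Ifitm6 neither, and the windows of Ccl3, Tnf, Cxcl2, Il1rn and Ccrl2, described below, held neither. A match of letters shows no binding. In GENCODE vM21 the genes lie at chr9:110419747-110423012 (Ngp), chr9:109847379-109849617 (Camp) and chr9:111019271-111042767 (Ltf). These genes begin before the RefSeq starts, so each window overlaps its GENCODE gene. The Ngp match at 11 bases lies inside that gene.

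Apart from these 2 cells the decline of granule genes was smaller but remained for several. Lcn2, the siderophore-binding lipocalin, was at 1702, 277 and 94.9 CPM in all members and its expected detection with each cell thinned to 1000 UMIs was 52.0%, 25.5% and 11.8% of cells. Its log2 ratio was -2.58 [-2.98 to -2.18] at day 7 against day 2 and -4.03 [-5.10 to -3.08] in reversed against day 2, and without these 2 cells it was -1.63 and -3.08. Injured tubules also express Lcn2: kept cells without Ptprc had 1421, 829 and 246 CPM, and with free RNA subtracted in proportion to the tubule markers the neutrophil ratios were -3.82 and -4.56. The tubule markers include Spp1, of which 1 neutrophil held 342 of 792 day 2 UMIs, so the amount subtracted also depended on that cell. The same subtraction took the ratio of Spp1 itself to 5.83 in reversed against day 2. Wfdc21, a whey acidic protein family member of neutrophils, showed 1881, 478 and 119 CPM, with log2 ratios of -1.96 [-2.29 to -1.62] and -3.88 [-4.85 to -3.01], or -1.14 and -3.06 without them. Anxa1, which ends neutrophil recruitment, was at 917, 408 and 273 CPM and lower after reversal than at day 2 (-1.71, or -1.16 without these 2 cells). Chil3, a chitinase-like protein, was at 345, 218 and 47.5 CPM, but 16 of its 29 day 2 UMIs and all 4 reversed UMIs lay in 1 cell each. Without the highest cells it was at 172, 184 and 0 CPM, so its ratio of -2.63 in reversed against day 2 rests on few cells. Without them the secondary granule list had 4 genes to compare, with 3 lower in reversed against day 2 (8.34% of all genes in that setting; median -1.89) and 1 lower at day 7 against day 2 (5.43%; median -0.62).

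Tertiary granule and secretory vesicle genes passed 2-fold in both directions. Of 8 compared at day 7 against day 2, 2 were higher and 1 lower (17.8% and 4.81% of all genes; median -0.09), of 8 in reversed against day 7 none was higher and 2 lower (6.83% and 10% of all genes; median -0.21), and of 6 in reversed against day 2, 1 was higher and 3 lower (14.4% and 8.45% of all genes; median -0.84). Mmp8, neutrophil collagenase, was at 536, 197 and 83.1 CPM and was lower in reversed against day 2, at -2.55 [-3.74 to -1.47], or -2.03 without the 2 cells rich in Ngp. Mmp9 differed by less than 2-fold between any pair of libraries. Slpi, an inhibitor of neutrophil elastase, had 1988, 1197 and 973 CPM, and Lrg1, a glycoprotein of the secretory route, had 964, 484 and 451 CPM. Slpi, Lrg1, Hp (haptoglobin) and Pglyrp1 (a peptidoglycan-binding granule protein, at 1393, 464 and 368 CPM) were lower after reversal than at day 2 over all members, but each was within 2-fold once the 2 cells were left out (-0.83, -0.83, -0.68 and -0.68). The same held at day 7 against day 2 for Mmp8, Pglyrp1, Anxa1 and Ifitm6, whose log2 ratios then were -0.88, -0.36, -0.60 and -0.81. Of the 2 primary granule genes with enough UMIs, Lyz2 and Ctsc, Ctsc was higher at day 7 than at day 2 (17.8% of all genes) and both were lower after reversal than at day 7 (10% of all genes). Among monocyte-poor members Ctsc had too few UMIs to compare, and Lyz2 was within 2-fold in both ratios but lower in reversed against day 2 (-1.06). Lyz2 was at 4452, 8195 and 3168 CPM in all members and at 2749, 1823 and 1316 CPM in the monocyte-poor ones.

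**Figure D3:**
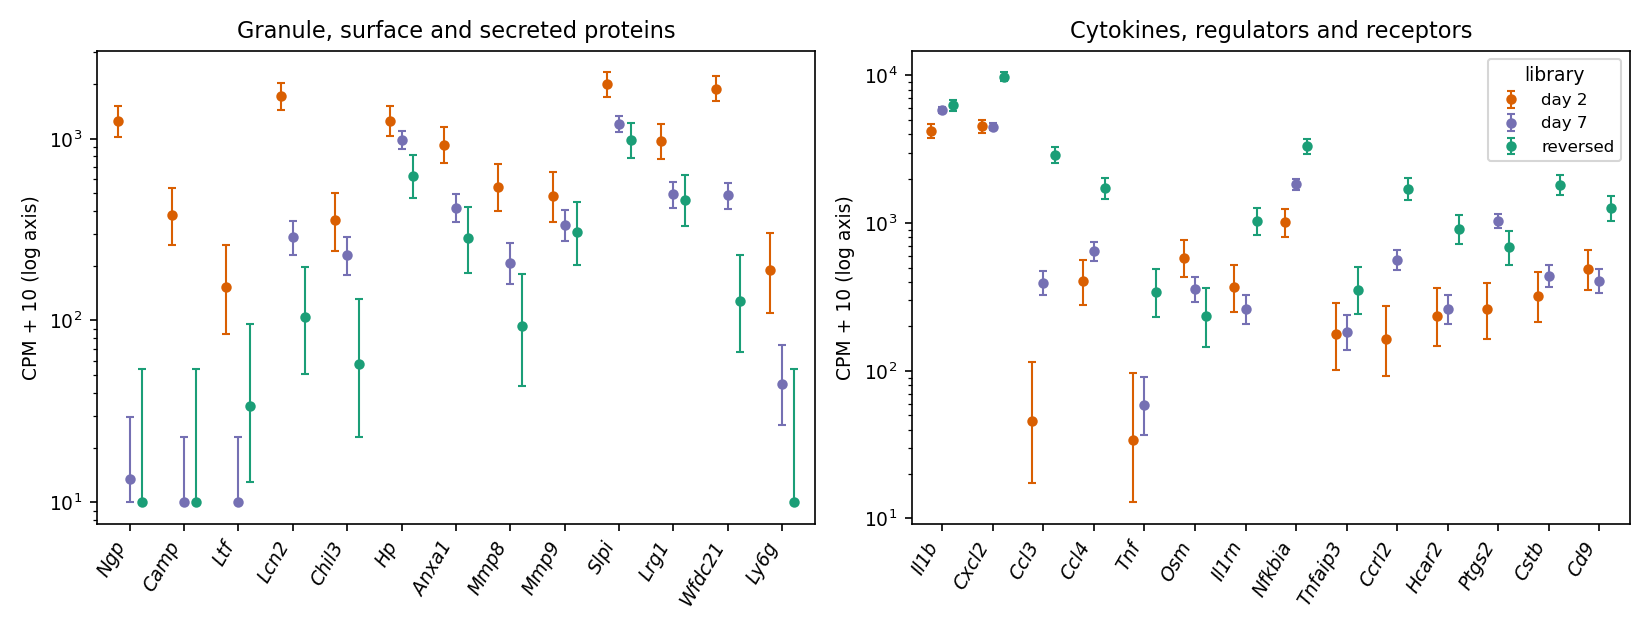
Levels of granule, surface and secreted protein genes and of cytokine, regulator and receptor genes in the neutrophils of each library, in CPM plus 10 (log axis), with exact 95% Poisson intervals that cover counting error only. Lcn2, Wfdc21 and Mmp8 step down from day 2 to the reversed library, while Ccl3, Ccl4, Tnf, Il1rn and Ccrl2 are highest in the reversed library.

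Several stefins, S100 proteins and related genes were lower after reversal than at day 2. Leaving out S100a8, S100a9 and Retnlg, by which the cells were chosen, 6 of 9 genes of this list were lower and 1 higher in reversed against day 2 (median -1.02), where 8.45% of all genes were lower. In reversed against day 7, 5 of 11 were lower and none higher (median -0.73), against 10% of all genes lower, and at day 7 against day 2, 3 of 12 were lower and 2 higher (median -0.42), against 4.81% and 17.8%. Wfdc17, a small secreted protein of activated myeloid cells, was at 5916, 3682 and 1768 CPM, a log2 ratio of -1.74 [-2.01 to -1.47] after reversal against day 2. Stfa2l1 and Gm5483, cytosolic inhibitors of cysteine proteases in the stefin cluster, were at 357, 266 and 107 CPM and 488, 401 and 237 CPM, each in few cells (7, 20 and 4 for Stfa2l1). S100a4 was higher in both day 7 and the reversed library than at day 2, at 2.62 and 1.21, but monocytes share this gene, and in the monocyte-poor members it was at 27.9, 66.3 and 19.1 CPM, too few UMIs to compare.

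Part of the cytokine and chemokine genes were higher after reversal. Of 10 compared in reversed against day 2, 5 were higher and 1 lower (14.4% and 8.45% of all genes; median 0.97), in reversed against day 7, 6 of 15 were higher and 3 lower (6.83% and 10% of all genes; median 0.10), and at day 7 against day 2, 6 of 14 were higher and 2 lower (17.8% and 4.81% of all genes; median 0.57). The 24 listed genes together reached 12297, 14327 and 24016 CPM. Il6 and Il10 were at 0 UMIs in every library, which at this depth allows up to 3 UMIs each.

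Ccl3, the macrophage inflammatory protein that draws monocytes and lymphocytes, had the largest ratio of all genes ranked in reversed against day 2. It had 3, 111 and 242 UMIs in 3 of 20, 21 of 59 and 10 of 18 cells, with at most 1, 26 and 52 in a cell, or 35.7, 384 and 2871 CPM. Its log2 ratio was 3.11 [1.75 to 4.53] at day 7 against day 2, 2.87 [2.55 to 3.20] in reversed against day 7 and 5.98 [4.64 to 7.39] in reversed against day 2. The difference did not rest on a single cell, since the levels without the highest cell were 24.6, 297 and 2343 CPM, and the expected detection after such thinning was 4.27%, 18.8% and 46.7% of cells. Monocytes held 445, 115 and 185 CPM and the monocyte-poor members 41.9, 696 and 4157 CPM, so the difference was as large without the members that carried monocyte RNA. The neutrophils held only 0.0964%, 2.11% and 8.73% of the Ccl3 UMIs of their library.

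Ccl4, a chemokine close to Ccl3, was at 393, 633 and 1709 CPM in 5 of 20, 31 of 59 and 12 of 18 cells, with a ratio of 1.42 [1.10 to 1.74] in reversed against day 7. At day 2, 27 of its 33 UMIs lay in 1 cell that also held B-cell transcripts, and without the highest cells the levels were 74.9, 524 and 1078 CPM. Tnf, the gene of tumour necrosis factor, was at 23.8, 48.4 and 332 CPM, with 2, 14 and 28 UMIs in 1 of 20, 9 of 59 and 7 of 18 cells. Its ratio in reversed against day 7 was 2.55 [1.67 to 3.42]. Il1rn, the secreted antagonist of the interleukin-1 receptor, was at 357, 253 and 1020.4 CPM, with a ratio of 1.97 [1.52 to 2.43] in reversed against day 7 and 1.49 [0.89 to 2.12] against day 2. Of its UMIs 18 of 30 at day 2 and 31 of 86 after reversal lay in 1 cell each, and without the highest cells the levels were 147, 227 and 713 CPM, so that day 2 was then below day 7. Cxcl2, a ligand of CXCR2 and a neutrophil attractant, was at 4499.8, 4482 and 9789 CPM; day 7 and day 2 did not differ past 2-fold (-0.01 [-0.17 to 0.16]), and the reversed library was higher than both (1.13 [1.00 to 1.25] and 1.12 [0.94 to 1.30]). Monocytes had Cxcl2 at 821, 52 and 728 CPM.

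Il1b, the gene of interleukin-1 beta, was high in every library. It was found in 19 of 20, 58 of 59 and 17 of 18 cells, at 4202, 5842 and 6277 CPM, with a median of 14.5, 31 and 17.5 UMIs per cell and a maximum of 58, 67 and 84, and no ratio passed 2-fold. In monocyte-poor members it was at 4856, 9613 and 7628 CPM, and day 7 against day 2 then came close to 2-fold (0.98). Monocytes of the same libraries had 315, 582 and 681 CPM. Osm, the gene of oncostatin M, went the other way from Ccl3, at 571, 346 and 225 CPM, with a ratio of -1.30 [-2.12 to -0.53] in reversed against day 2. At day 2, 14 of its 48 UMIs lay in the cell richest in Ngp, and 10 of its 19 reversed UMIs lay in 1 cell. Without the highest cells Osm was at 429, 311 and 110 CPM. Ccl6 was at 1714, 1090.1 and 889.9 CPM and stayed within 2-fold. Cxcl3 and Cxcl5 were both found at day 7 with 0, 31 and 3 and 0, 45 and 0 UMIs, but 22 of the 31 Cxcl3 UMIs and 44 of the 45 Cxcl5 UMIs lay in 1 cell each. For Cxcl5 this was the cell that carried the collagen transcripts. Ccl9 and Tgfb1, higher at day 7 than at day 2, are abundant in macrophages and monocytes, and Ccl9 was at 41.9, 166 and 38.1 CPM in the monocyte-poor members. Over cells with S100a8 and S100a9 of at least 5 UMIs, both ratios turned (-0.082 for Ccl9 and -0.029 for Tgfb1).

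Regulators of interleukin-1, TNF and NF-kB signalling were in part higher after reversal than at day 2. Leaving out Il1r2, by which the cells were chosen, 7 of 11 were higher in reversed against day 2 and none lower, with a median of 1.49, where 14.4% of all genes were higher. In the monocyte-poor members 5 of 8 were higher and none lower, where 16% of all genes compared there were higher. In reversed against day 7, 1 of 14 was higher and 1 lower (6.83% and 10% of all genes; median 0.38), and at day 7 against day 2, 3 of 14 were higher and none lower (17.8% and 4.81%; median 0.59). In monocyte-poor members 5 of 11 were higher at day 7 against day 2, Il18rap, Nfkbia, Nfkbiz, Nlrp3 and Tnfaip2, against 15.8% of all genes there. Nfkbia, the inhibitor that NF-kB itself induces, was at 999.95, 1817 and 3299 CPM, a ratio of 1.71 [1.36 to 2.08] in reversed against day 2. Nfkbiz, a nuclear cofactor of NF-kB, was at 179, 523 and 629 CPM, Tnfaip2 at 214, 415 and 759 CPM, and the TNF receptor Tnfrsf1b at 47.6, 149 and 214 CPM, with ratios against day 2 of 1.76 [0.94 to 2.64], 1.78 [1.03 to 2.58] and 1.96 [0.52 to 3.45]. Tnfaip3 (A20), the deubiquitinase that ends NF-kB signalling, was at 167, 173 and 344 CPM and lay at the 2-fold limit (1.00 [0.08 to 1.97]).

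Transcription factors were also higher in part. Among 15 compared in reversed against day 2, 10 were higher and none lower (14.4% and 8.45% of all genes; median 1.44), in reversed against day 7, 7 of 22 were higher and 4 lower (6.83% and 10% of all genes; median 0.40), and at day 7 against day 2, 8 of 22 were higher and none lower (17.8% and 4.81% of all genes; median 0.53). Klf2, a quiescence factor of leukocytes, was at 559, 706 and 2065 CPM, with a ratio of 1.53 [1.24 to 1.83] in reversed against day 7. Atf3, a stress-induced repressor of inflammatory genes, was at 35.7, 166 and 451 CPM and Maff, a small Maf factor, at 35.7, 24.2 and 249 CPM. Nfkb1 was at 23.8, 107 and 249 CPM. Jun was at 155, 433 and 937 CPM, but 42 of its 79 UMIs in the reversed library lay in the cell with endothelial transcripts, and without that cell it was 506 CPM. Cebpb (3809, 3073 and 3714 CPM) and Spi1 (643, 626 and 475 CPM), which define the lineage, differed by less than 2-fold.

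Part of the genes that tissue digestion induces were also higher in reversed against day 2. The 20 listed dissociation stress genes include Fos, Fosb, Jun, Junb, Egr1, Atf3, Nfkbia, Socs3 and Zfp36 from the lists above. In reversed against day 2, 7 of 17 were higher and none lower (median 0.78), against 14.4% of all genes higher. Of these 7, Atf3, Egr1, Fosb, Jun and Nfkbia had already been counted as higher in the lists above. In reversed against day 7, 4 of 18 were higher and 1 lower, against 6.83% and 10% of all genes. At day 7 against day 2, 4 of 18 were higher and none lower, a share near the 17.8% of all genes. Their sum was 13547, 15189 and 21049 CPM in neutrophils. In monocytes of the same libraries it was 11500, 9254 and 10744 CPM and in kept cells without Ptprc 4783, 6478 and 5229 CPM. Fos (2226, 1761 and 2373 CPM) and Dusp1 (1548, 1180.1 and 2136 CPM), both early-response genes, were within 2-fold, whereas Ier3 was at 405, 426 and 1341 CPM. The part of digestion in the cytokine, regulator and transcription factor results was not tested.

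**Figure D4:**
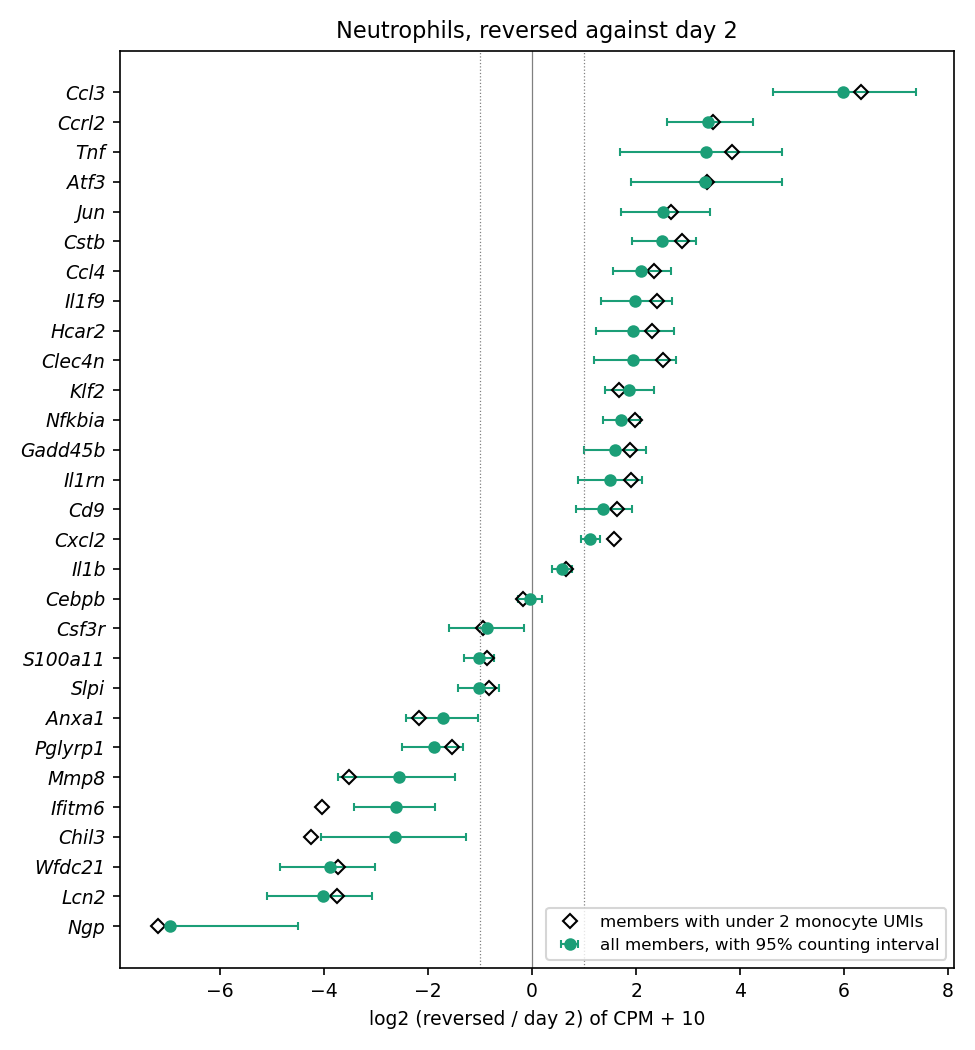
Log2 ratio of CPM plus 10 in reversed against day 2 neutrophils for named genes, with 95% counting intervals. Diamonds are the same ratio over members with under 2 UMIs of Csf1r, Ccr2 and Ms4a4c, and dotted lines mark 2-fold. For Ngp, at 0 UMIs after reversal, the point depends on the added 10 CPM and is no bound. Ccl3 (5.98) stands farthest to the right and Lcn2 (-4.03) and Wfdc21 (-3.88) far to the left, and the diamonds keep each of these on its side. The diamond of Chil3 rests on under 20 UMIs.

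Most chemoattractant and growth factor receptors were within 2-fold. Leaving out Cxcr2, by which the cells were chosen, 1 of 12 was higher and 1 lower at day 7 against day 2, Ccrl2 and C5ar1, where 17.8% and 4.81% of all genes were. The medians of the list were 0.18, 0.13 and 0.15 for the 3 comparisons. In reversed against day 7, Ccrl2 was higher and Il17ra, a receptor chain for interleukin-17, lower among 12 (6.83% and 10% of all genes), with Il17ra at 95.2, 180.0 and 59.3 CPM (-1.45 [-2.76 to -0.27]). In reversed against day 2, Ccrl2 and Ptafr were higher and C5ar1 lower among 8, where 14.4% of all genes were higher and 8.45% lower. Ccrl2, a chemerin-binding receptor that does not signal and tunes CXCR2 on neutrophils, was at 155, 550.2 and 1697 CPM in 3 of 20, 33 of 59 and 12 of 18 cells. Its ratios were 1.77 [0.99 to 2.63], 1.61 [1.27 to 1.94] and 3.37 [2.59 to 4.24] for the 3 comparisons, and its expected detection in thinned cells was 9.11%, 35.2% and 53.9%. C5ar1, the receptor of complement C5a, was at 643, 269.9 and 285 CPM and lower than at day 2 in both later libraries (-1.22 [-1.73 to -0.71] and -1.15 [-1.88 to -0.45]), although in monocyte-poor members the ratios were -0.50 and -0.64. Ptafr, the receptor of platelet-activating factor, was at 226, 280.3 and 486 CPM (1.07 [0.28 to 1.90] in reversed against day 2). Cxcr4, which returns aged neutrophils to the marrow, was at 83.3, 166 and 142 CPM. In monocyte-poor members 2 of 10, Ccrl2 and Cxcr4, were higher and none lower at day 7 against day 2 (15.8% and 7.64% of all genes there). In reversed against day 7, 1 of 10, Ccrl2, was higher and 1, Csf3r, lower (8.36% and 12.4%). In reversed against day 2, 2 of 6 were higher and none lower (16% and 11.9%). Csf3r was at 600, 704 and 305 CPM in these members.

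Of 11 adhesion genes 3 were higher and none lower at day 7 against day 2 (17.8% and 4.81% of all genes), none of 11 passed 2-fold in reversed against day 7 (6.83% and 10%), and 1 of 6 was higher and 1 lower in reversed against day 2, near the 14.4% and 8.45% of all genes. In monocyte-poor members 2 of 9, Icam1 and Itgal, were lower in reversed against day 7, where 12.4% of all genes compared there were lower. Selplg, the ligand of P-selectin, was at 595, 322 and 273 CPM (-1.10 [-1.85 to -0.38] in reversed against day 2). Itgam, the CD11b chain of the Mac-1 integrin, was at 83.3, 211 and 225 CPM, a ratio of 1.15 [0.10 to 2.32] at day 7 against day 2, and Itgal, the CD11a chain, at 35.7, 204 and 142 CPM. Among the 6 oxidase genes compared over all members, only Cybb (gp91phox, the catalytic chain) passed 2-fold, at 2.16 at day 7 against day 2, where 17.8% of all genes were higher, and -1.63 in reversed against day 7, where 10% were lower. It was at 95.2, 460.3 and 142 CPM in all members. In the monocyte-poor ones it was at 41.9, 116 and 19.1 CPM, too few UMIs to compare. There Ncf1 was higher and Ncf4 lower at day 7 against day 2. Ncf1 and Cyba, further subunits, were at 167, 301 and 273 CPM and 1179, 1471 and 1234 CPM.

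Pattern and Fc receptors gave 1 of 18 higher and none lower at day 7 against day 2, 2 of 18 higher and 1 lower in reversed against day 7, and 2 of 14 higher and 1 lower in reversed against day 2, where 17.8%, 6.83% and 14.4% of all genes were higher and 4.81%, 10% and 8.45% lower. In monocyte-poor members 4 of 11, Clec4d, Clec4e, Clec4n and Fcgr3, were higher in reversed against day 2 and none lower, against 16% of all genes higher there. Clec4n (dectin-2, which binds fungal mannans) was at 202, 190.3 and 807 CPM and Clec4e (Mincle, which senses glycolipids and dead cells) at 298, 464 and 973 CPM. Their ratios in reversed against day 2 were 1.94 [1.19 to 2.76] and 1.68 [1.03 to 2.36]. Clec4d, the partner of Clec4e, was at 286, 311 and 522 CPM, and Trem1, an amplifier of inflammatory signals, at 274, 232 and 225 CPM.

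Among genes of lipid mediators, Ptgs2 (cyclooxygenase 2, the inducible enzyme of prostaglandin synthesis) was at 250.0, 1024 and 676 CPM in 10 of 20, 48 of 59 and 9 of 18 cells, higher than at day 2 in both later libraries (1.99 [1.37 to 2.67] and 1.40 [0.68 to 2.16]). Hcar2 was at 226, 253 and 902 CPM in 7 of 20, 32 of 59 and 14 of 18 cells, with ratios of 1.80 [1.32 to 2.27] and 1.95 [1.23 to 2.72] for the reversed library. Cyp4f18, which inactivates leukotriene B4, was at 226, 225 and 605 CPM, and Alox5ap, which presents arachidonate for leukotriene synthesis, at 1107, 1197 and 486 CPM, so that 1 gene of leukotriene breakdown was higher and 1 of its synthesis lower (1.38 and -1.17 in reversed against day 2). The list had 1 of 6 higher and none lower at day 7 against day 2 (17.8% and 4.81% of all genes). In reversed against day 7, 2 of 7 were higher and 1 lower (6.83% and 10% of all genes). In reversed against day 2, 3 of 6 were higher and 1 lower (14.4% and 8.45% of all genes). Hdc, the histamine enzyme, was within 2-fold over all members, at 631, 917 and 676 CPM. In monocyte-poor members it was at 726, 1649 and 706 CPM, higher at day 7 than at day 2 (1.17) and lower in reversed against day 7 (-1.21). Il1f9 was at 274, 166 and 1115 CPM, but 56 of its 94 UMIs in the reversed library lay in 1 cell, without which it was 465 CPM.

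Several genes of survival and of tissue neutrophils were higher after reversal than at day 2. In the survival and cell death list 5 of 16 were higher and none lower at day 7 against day 2 (17.8% and 4.81% of all genes). In reversed against day 7, 3 of 17 were higher and 2 lower, the latter near the share of all genes (6.83% and 10%). In reversed against day 2, 5 of 11 were higher and none lower (14.4% and 8.45% of all genes), with a median of 0.70. Bcl2a1b, of the A1 family of inhibitors of apoptosis whose near-identical copies can split reads, was at 226, 519 and 653 CPM, Pim1, a survival kinase, at 679, 1436 and 1092 CPM, and Gadd45b at 381, 488 and 1163 CPM. Mcl1, on which neutrophil survival depends, was at 440.5, 536 and 653 CPM and within 2-fold. In the list of Siglecf-type and tissue neutrophil genes, 3 of 13 were higher and 1 lower at day 7 against day 2, where 4.81% of all genes were lower. In reversed against day 7, 4 of 13 were higher and 1 lower (6.83% and 10% of all genes). In reversed against day 2, 6 of 11 were higher and 1 lower (14.4% and 8.45% of all genes), with a median of 1.20. The share higher at day 7 was near the 17.8% of all genes. In monocyte-poor members this list had 4 of 12 higher and 4 lower in reversed against day 7, and the survival list 1 of 12 higher and 2 lower, against 8.36% and 12.4% of all genes there. Cstb, a cysteine protease inhibitor, was at 309.5, 429 and 1804 CPM (2.50 [1.91 to 3.14] in reversed against day 2), Cd9, a tetraspanin, at 476, 398 and 1246 CPM and Ninj1, which ruptures the membrane of dying cells, at 274, 190.3 and 700.1 CPM. Siglecf itself had 2, 5 and 7 UMIs in 1 of 20, 5 of 59 and 4 of 18 cells. Fth1 and Ftl1, the iron-storing ferritin chains, were at 9726, 8624 and 18724 CPM and 7178, 5835 and 12269 CPM. Both were higher in reversed against day 7 (1.12 [1.03 to 1.21] and 1.07 [0.96 to 1.18]). A reversed cell of 7150 UMIs was the highest for both, and also for Cstb, Ninj1, Clec4n, Maff and Il1rn. Without the highest cells Fth1 was at 9069, 8137 and 16427 CPM. Ftl1 was then at 7252, 5792 and 10800 CPM, with the reversed library within 2-fold of day 7. Cstb and Ninj1 were then at 1491 and 506 CPM after reversal. The single gene lower in this list was Spp1, at -2.64, which injured tubules express at high levels.

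Part of the interferon-response genes were higher at day 7 than at day 2, and part were lower after reversal than at day 7. At day 7 against day 2, 11 of 20 were higher and 1 lower, with a median of 1.01, where 17.8% of all genes were higher and the median of all was 0.25. In monocyte-poor members 7 of 17 were higher and 1 lower, where 15.8% of all genes compared there were higher and 7.64% lower. Between reversed and day 7, none of 21 was higher and 7 were lower (median -0.86), against 10% of all genes. In monocyte-poor members none of 16 was higher and 12 were lower (median -1.50), against 8.36% and 12.4% of all genes. The ratio of reversed to day 2 had 2 of 11 higher and 2 lower (14.4% and 8.45% of all genes). In monocyte-poor members none of 7 was higher and 4 were lower, Ifitm1, Ifitm3, Ifitm6 and Ly6e (16% and 11.9% of all genes; median -1.01). The list summed to 10083, 12711 and 7677 CPM in neutrophils, 8864, 12096 and 10260 CPM in monocytes, and 2203, 5018 and 2700 CPM in kept cells without Ptprc, so other cells were also highest at day 7. How much of the neutrophil counts of this list came from RNA of other cells was not tested. Ratios with free RNA subtracted are given for 3 genes at the end of this paragraph. Isg15, the ubiquitin-like protein that type I interferon induces, was at 83.3, 356 and 178 CPM, a ratio of 1.97 [0.96 to 3.11] at day 7 against day 2. Ifit1, which binds viral RNA, had 1, 39 and 2 UMIs (2.73 [0.84 to 3.85]), and Rsad2 (viperin) was at 35.7, 135 and 178 CPM in 2 of 20, 19 of 59 and 4 of 18 cells. Of the 15 Rsad2 UMIs of the reversed library 11 lay in the cell of 11097 UMIs with endothelial transcripts, and without it the level was 54.7 CPM. Slfn4 and Slfn1, interferon-induced schlafens of myeloid cells, were at 83.3, 225 and 119 CPM and 143, 298 and 285 CPM, where kept cells without Ptprc had 0.2, 2.41 and 0.385 CPM and 3.7, 9.76 and 3.16 CPM. Zbp1, a sensor of Z-form nucleic acid, was at 23.8, 163 and 59.3 CPM, and Ifitm3, which blocks virus entry, at 1643, 3322 and 1827 CPM (1.01 [0.75 to 1.28]). Ifit3 was at 0 UMIs at day 2 and so at least 2.03-fold higher at day 7. Irf7, the amplifying factor of the interferon loop, was higher in reversed than at day 2, but 15 of its 19 UMIs lay in 1 cell, without which it was at 51.5 CPM, against 47.6 CPM at day 2. Ifitm1, high in neutrophils at 2107, 1651 and 748 CPM and low in monocytes at 213, 152 and 35.2 CPM, was lower after reversal than at day 7 or day 2 (-1.13 and -1.48). Rsad2 in kept cells without Ptprc was at 28.5, 139 and 117 CPM and Bst2 at 76.9, 335 and 156 CPM, so at day 7 neither was higher in neutrophils than in those cells. With free RNA subtracted, the ratio of day 7 to day 2 was 1.91 for Isg15, 1.26 for Slfn4 and 1.58 for Rsad2.

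Most glycolysis and hypoxia genes were within 2-fold. At day 7 against day 2, 1 of 15 was higher and none lower (17.8% and 4.81% of all genes), in reversed against day 7, 1 of 14 was lower and none higher (10% and 6.83%), and in reversed against day 2, 2 of 11 were lower and none higher (8.45% and 14.4%; median -0.46). In monocyte-poor members 3 of 11 were lower in reversed against day 7, where 12.4% of all genes compared there were lower. At day 7 against day 2, 1 of 12 was higher in these members and 2, Gpi1 and Ndrg1, were lower (15.8% and 7.64% of all genes). Neutrophils rely on glycolysis for energy. Gapdh was at 1048, 599 and 510.2 CPM and Gpi1, the second enzyme of the pathway, at 429, 266 and 107 CPM (-1.91 [-3.02 to -0.89] in reversed against day 2). Slc2a3, the glucose transporter of leukocytes, was at 23.8, 96.9 and 59.3 CPM, and higher at day 7 than at day 2 (1.66 [0.03 to 3.13]).

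In the reversed library Ccl3 was found mostly in cells that also had Ccl4. Of 18 cells, 9 had both, 1 had Ccl3 alone, 3 had Ccl4 alone and 5 neither. Ccl3 and Il1rn occurred together in 8 cells, Ccl3 alone in 2, Il1rn alone in 4 and neither in 4, and Ccl3 and Tnf occurred together in 5. At day 7, 14 of 59 cells had both Ccl3 and Ccl4, 7 Ccl3 alone, 17 Ccl4 alone and 21 neither. Cells of a library share its mice and differ in depth, so these counts describe the cells and were not tested.

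Genes were also ranked by their ratio, leaving out the 5 selecting genes, mitochondrial, ribosomal, haemoglobin and immunoglobulin genes, genes in under 5 cells of the higher library (such as Ngp and Camp), and genes below the level of kept cells without Ptprc there (6 increases and 40 decreases past 2-fold in reversed against day 2). Among the rest, the 10 largest increases in reversed against day 2 were Ccl3, Rgs1, Basp1, Ccrl2, Tnf, Atf3, Hes1, Nfkb1, Gm10116 and Jun. Rgs1, which shortens chemokine receptor signalling, and Basp1, a membrane protein of activated myeloid cells, had log2 ratios of 4.43 [2.54 to 5.56] and 4.06 [2.14 to 5.20]. The 10 largest decreases were Atp6v1g3, Lcn2, Wfdc21, Chil3, Ifitm6, Mmp8, Mgst1, Gpi1, Pglyrp1 and Glrx, of which Atp6v1g3, a proton pump subunit of collecting duct cells, had 94 of its 98 day 2 UMIs in 1 cell. The increases at day 7 against day 2 included Cd209a, Klf4, Ms4a4c and Cxcl3, with Ms4a4c, which the split used, at 3.68 over all members. Of the 48 Cd209a UMIs of day 7, 35 lay in 1 cell, without which it was at 47.3 CPM against 166. The decreases included S100g, Atp6v1g3, Lcn2, Wfdc21, Ifitm6, Sod2 and Padi4. S100g had 102 of its 110 day 2 UMIs in 1 cell, and was at 1309 CPM with it and 108 CPM without it. Padi4, the enzyme that citrullinates histones in extracellular traps, had 13, 12 and 4 UMIs, and its ratio of -1.68 was -0.997 without the 2 cells rich in Ngp. Increases in reversed against day 7 included Maff, Ccl3, Il1f9, Tnf, Rgs1, Osgin1, Irak2 and Cstb, and the decreases included Saa3, F13a1, Fn1, Vcan and Mgl2, genes of monocytes, macrophages and stroma that were at 0 UMIs in the reversed neutrophils except Mgl2. S100g led the increases there through the single tubule-marked cell.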

How the data were processed

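The authors deposited 1 matrix of UMI counts per library (10x 3′ V2), with 28692 gene IDs and 28625 symbols. These are raw counts, not normalized. Cell Ranger, STAR, GRCm38 and mm10 are named in the submitters' processing notes; their versions are not given in the sources used here.

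Neutrophils were selected on raw UMIs as stated at the opening of the results. Their counts were summed per library and given as CPM with exact Poisson intervals, and shares have Clopper-Pearson intervals. Ratios used a pseudocount of 10 CPM, genes with at least 20 UMIs over both libraries, and an exact conditional binomial interval. All intervals (95%) and limits of 3 counts cover counting error only. Comparison cells of the same library were C1q-high macrophages (2398 cells in all), Ly6c2-high monocytes (319), T cells (743), proximal tubule (5146) and endothelium (1108), and kept cells without Ptprc. Free RNA, as an alternative, was subtracted with the profile of kept cells without Ptprc, scaled to the tubule markers (28.6%, 22.4% and 16.0% of neutrophil UMIs at day 2, day 7 and after reversal). Those kept cells include immune cells, and the tubule markers include Spp1. Doublets were scored with Scrublet, whose automatic calls (0, 8, 2 and 25 cells) had not worked, so that removal by score was tried as an alternative only. The ratio script was tested on simulated data.

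Genes named in the text were the members of the gene lists, the 10 largest increases and decreases of each ratio (found in at least 5 cells of the higher library, above the level of kept cells without Ptprc there), the 15 highest genes and the 15 with the largest smallest ratio over monocytes. Some listed genes are not reported here. Members and lists were chosen with earlier results of these data known. Azu2, Clec7a and Cebpd were not matched to a symbol of the matrices. Promoters were read from RefSeq (GRCm38.p6), and gene positions from GENCODE vM21. Doublet scores came from scanpy 1.11.5 (anndata 0.12.19), scaling factors alone from edgeR 4.0.16 and DESeq2 1.42.0, and intervals from scipy 1.17.1 under Python 3.11.15, with pandas 2.3.3, numpy 2.4.6 and matplotlib 3.10.9.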

Additional observations from a re-analysis of the deposited data

How the results depend on the processing

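No paired analysis was possible because each group was 1 library of pooled mice. The alternatives without members carrying monocyte RNA and without the 2 Ngp-rich cells, and the list counts without the selecting genes, were chosen after seeing the data; the others were changes of threshold, scaling, pseudocount, filter, doublet and free RNA treatment.

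The day 7 share depended on these limits: with C1q limited to under 5 UMIs it was 0.562% of kept cells (25 cells) and 0.682% of immune cells, and without members carrying monocyte RNA 0.787% (35 cells) and 0.954%. Day 2, at 0.861% and 0.816% of kept cells, was then the highest library.

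Counts of genes past 2-fold moved with a pseudocount of 50, with TMM and with free RNA subtracted, although the same genes were compared. In the other settings that moved them, the number of genes that could be compared changed too. Without monocyte RNA this fell from 2555 to 1309 at day 7 against day 2 and from 2637 to 1256 in reversed against day 7, and the shares past 2-fold were 15.8% against 17.8% higher in the first, and 8.36% against 6.83% higher and 12.4% against 10% lower in the second. With C1q under 5 (1131 and 1248 genes) the shares were 10.6% higher in the first and 8.41% higher and 6.01% lower in the second. At day 7 against day 2 the 456 higher genes became 120 with C1q under 5, 207 without monocyte RNA, 181 with a pseudocount of 50, and 125 or 920 with at least 50 or 10 UMIs, and the 123 lower genes 76 (C1q), 69 (pseudocount), 50 and 257 (UMIs) and 201 with free RNA subtracted. For reversed against day 7 the 180 higher genes became 105 (C1q), 105 (without monocyte RNA), 88 (pseudocount), 113 (TMM), 58 and 404 (UMIs) and 281 (free RNA), and the 265 lower genes 75 (C1q), 156 (without monocyte RNA), 103 (pseudocount), 75 and 579 (UMIs). Only the UMI filter moved the counts of reversed against day 2 past 1.5 times, to 51 and 449 higher and 47 and 239 lower.

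Of 282 named ratios past 2-fold, 269 stayed past it with TMM, 266 with median-of-ratios factors, 241 with each cell weighted equally and 234 with a pseudocount of 50, and without monocyte RNA 172 of the 200 that could still be compared. TMM moved the median of all genes by 0.095, -0.24 and -0.15, and median-of-ratios by -0.083, -0.087 and -0.17. Directions reversed, with the cause not tested, as follows. At day 7 against day 2 with S100a8 and S100a9 of at least 5 UMIs: Fcgr1 -0.16, Apoe -0.60, Tgfb1 -0.029, Ctsc -0.85, Ctsb -0.15 and Ccl9 -0.082; with C1q under 5: Ctsc -0.048; with at most 20% mitochondrial UMIs: Kap 2.54; with free RNA subtracted: Gpx3 0.36. For reversed against day 7, with a sum of at least 3 over Retnlg, Cxcr2 and Il1r2: Emcn -0.57 and Jun -0.012; with doublet scores removed: Spp1 0.30; with free RNA subtracted: Spp1 5.83 and Slc34a1 -1.76; with C1q under 5: Ctsc 0.074 and Ccr2 0.074. Against day 2, reversed gave Spp1 5.83 with free RNA subtracted, and H2-Aa -0.63 and Cd74 -0.35 without monocyte RNA. These are mostly genes of tubule, endothelium and mononuclear phagocytes. With 18 to 59 cells a library, a gene below about 20 UMIs could not be compared.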
